A study of Mus musculus with 21 samples.

Results

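Between day 3 and day 5 of culture without ascorbic acid, embryoid bodies of a mouse embryonic stem cell line lost many transcripts of the core pluripotency network and the primed epiblast and some of the primitive streak, and gained many of mesenchyme and lateral mesoderm. This step is described from 6 of the 21 arrays of the study, 3 of day 5 and 3 of day 3, chosen by their titles alone. The cells are CGR8, an established mouse embryonic stem cell line with no engineered allele named in the labels. Embryoid bodies are aggregates in which such cells leave the stem cell state and form the germ layers. Each aggregate started as a hanging drop of 500 cells in 25 µL, and aggregates were moved to a shaker after day 2, so all day 3 and day 5 samples had been agitated. The groups used are day 5 with ascorbic acid at 100 µM, day 5 without it, day 3 with it and day 3 without it, all labelled as grown in 20% IMDM. Days 2 and 0 without ascorbic acid give the earlier course, and day 0 was undifferentiated cells in medium labelled 10% GMEM. The study asks how ascorbic acid favours heart cell formation, and cultures were kept only where it later raised the number of beating aggregates. The untreated arrays therefore come from that selected set. RNA came from whole aggregates, so fewer cells of a type and less RNA per cell cannot be told apart.

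The days span what gastrulation does in the mouse embryo. Mouse embryonic stem cells resemble the epiblast before implantation, which Pou5f1 (Oct4), Sox2 and Nanog hold in an undifferentiated state. Nodal, Wnt and FGF signals then form the primitive streak, where cells lose E-cadherin contacts and move out as mesoderm or endoderm. BMP signals favour the lateral and extraembryonic mesoderm, from which heart, vessels and primitive blood arise.

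Values are log2 signals from an Affymetrix mouse genome array, on which 1 unit stands for a doubling, and levels are compared only within a gene. Errors of differences are standard errors (SE) from limma, with n = 3 arrays in each group. A gene was called changed at an adjusted p under 0.05 in limma, with the Benjamini-Hochberg adjustment over all 18194 genes tested; "rose" and "fell" are used only of called genes. By this rule 1653 genes (9.09%) rose and 1683 (9.25%) fell, with a median difference of -0.03 over all genes. At 2-fold or more, 586 (3.22%) rose and 458 (2.52%) fell. At 16-fold or more the counts were 22 and 14. Without regard to the test, day 5 lay above day 3 in every array for 15.3% of genes and below it for 19% of genes.

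The labels call the arrays biological replicates without saying whether they came from separate cultures. Correlations were 0.989 to 0.992 within day 5 and 0.990 to 0.995 within day 3. On the first principal component of all arrays, with 54.6% of the variance, day 5 replicates 1, 2 and 3 lay at 56.1, 63.7 and 55.9, and the day 3 replicates at -2.84, -2.18 and -18.3. Day 3 replicate 3 thus lay nearest to day 2, whose arrays lay between -38.9 and -25.6. Without it, 1144 genes rose and 1080 fell. The excess of the probe set at the 3' end over that at the 5' end is a measure of RNA degradation. For Actb it was 0.85, 0.94 and 0.89 at day 5 and 1.03, 0.96 and 1.05 at day 3. For 2 other controls the days overlapped. Gapdh had 0.21, 0.15 and 0.36 at day 5 and 0.16, 0.13 and 0.11 at day 3. Tfrc had 0.25, 1.17 and 1.02 at day 5 and 1.12, 1.05 and 1.50 at day 3. The part of RNA degradation in the results was not tested. For 9 genes of other mature tissues, such as Alb of liver and Ins2 of pancreas, signals were 3.58 to 7.42 and 0 were called. Probe sets of silent genes thus read at very different levels, and a fold understates a change whose low group is at such a background.

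**Figure D1:**
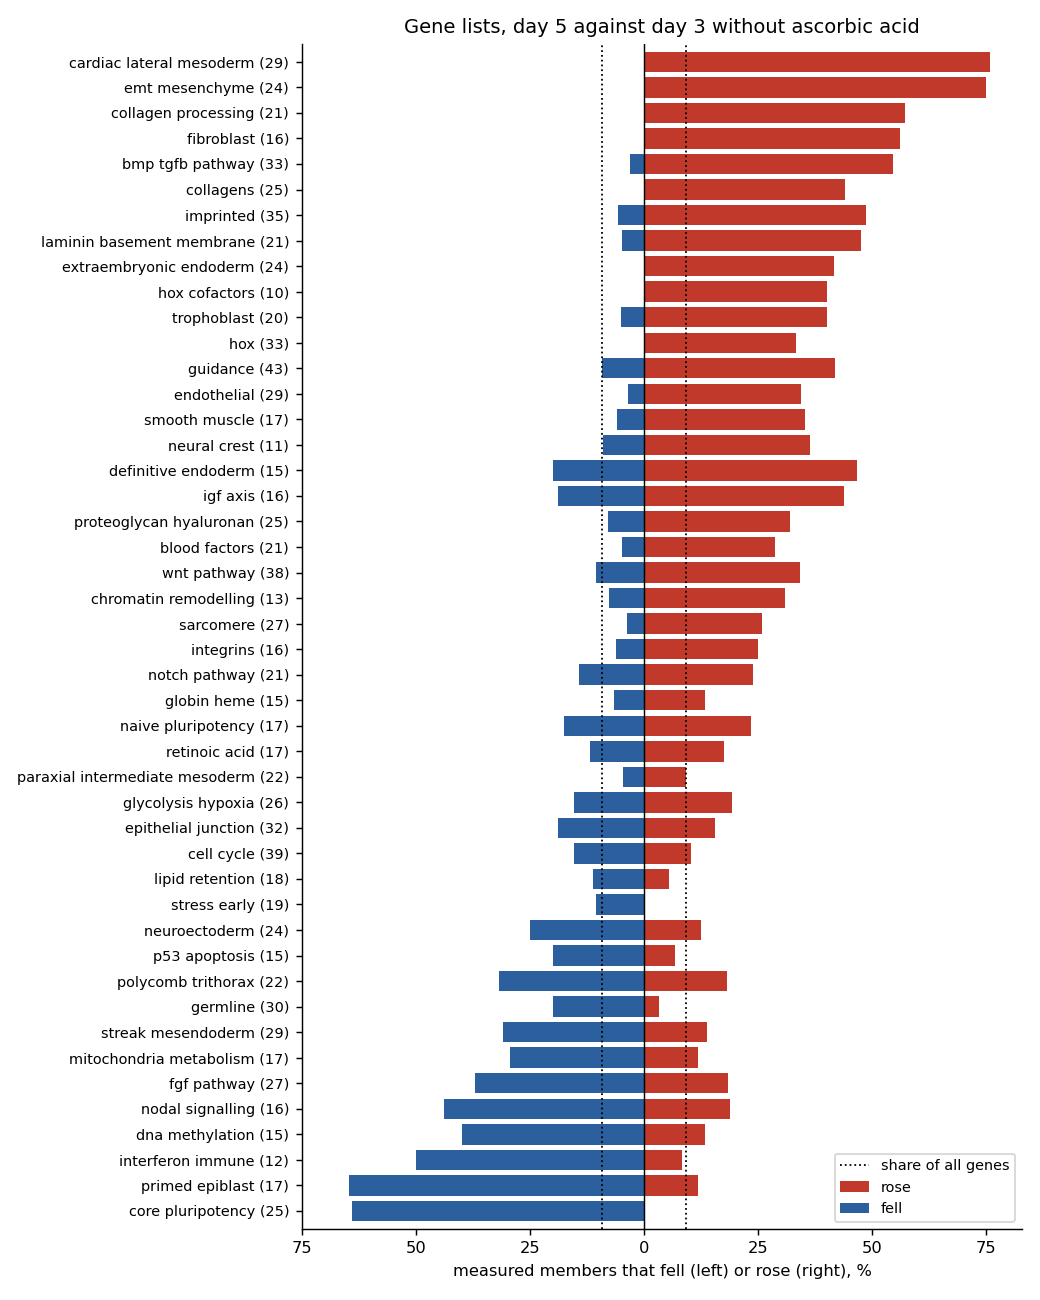
Share of the measured members of 46 gene lists that rose (right, red) or fell (left, blue) at day 5 against day 3 without ascorbic acid, in percent, with the number measured in parentheses; the dotted lines are the shares of all genes, 9.09% and 9.25%. Lateral and cardiac mesoderm (22 of 29 rose) and the mesenchyme list (18 of 24) stand at the top, and core pluripotency (16 of 25 fell) at the bottom.

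Of 25 measured genes of the core pluripotency network, 16 fell and 0 rose, against 9.25% of all genes that fell, and the median difference was -1.31. Nanog, the homeobox factor whose loss opens the way to differentiation, had 5.46, 6.10 and 6.13 at day 5, against 11.67, 11.76 and 11.16 at day 3. The groups were far apart, and Nanog fell by 5.63 ± 0.35 (adjusted p = 5.64e-10), the largest fall among the 18194 genes. At day 3 it had been higher than at day 2 by 1.94 (day 2 mean 9.59), so its signal was rising before it fell. Pou5f1, the POU factor required for pluripotency, had 6.18, 6.73 and 6.63 at day 5, against 11.69, 11.68 and 11.58 at day 3. It fell by 5.14 ± 0.25 (adjusted p = 1.23e-11), and its means at days 0 and 2 were 11.76 and 11.51.

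The known Oct4-Sox2 element of the Nanog promoter is shown because both of its factors and the gene itself fell in this step. It is in capitals in the 300 bases around a Nanog start site (RefSeq, GRCm38.p6, chr6:122707239-122707538, plus strand, from 250 bases before the start to 50 after it), 75 bases before the start.
Nanog: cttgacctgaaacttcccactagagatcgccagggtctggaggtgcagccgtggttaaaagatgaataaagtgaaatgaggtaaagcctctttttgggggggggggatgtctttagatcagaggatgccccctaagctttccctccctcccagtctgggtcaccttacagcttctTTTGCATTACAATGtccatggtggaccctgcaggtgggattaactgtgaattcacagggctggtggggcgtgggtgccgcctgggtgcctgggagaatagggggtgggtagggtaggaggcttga

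The element joins a POU word, TTTGCAT, to a Sox word, ACAATG, with 1 base between them. An exact match to this pair, on either strand, stood in the promoter window of 1 of 27025 genes (0.0037%), Nanog itself. The letters searched are those of the Nanog element, so this match was fixed in advance. The count does not measure how rare such elements are. The shorter octamer ATGCAAAT (ATTTGCAT on the other strand), the classical word bound by POU factors, stood in 532 of 27025 genes (1.97%), and in 243 of the 14453 tested genes with a promoter (1.68%). It stood in 6 of the 75 genes (8%) that fell 4-fold or more and have a promoter in the table, and in 5 of 128 (3.91%) of those that rose as much. A match is a description and no proof of binding. The 6 genes that fell are shown with 10 bases on either side of the octamer, in capitals; Mageb16, Chchd10 and Pcdh8 are named for the match alone.
Pim2 (chrX:7878094-7878121, plus strand): accctcctacATTTGCATacaggccctt
Zfp42 (chr8:43307178-43307205, minus strand): ctgaagaggcATTTGCATaactgagcaa
Mageb16 (chrX:79671604-79671631, minus strand): attccttctcATGCAAATaaagcattcc
Chchd10 (chr10:75933037-75933064, plus strand): gcacacgctgATGCAAATggctgatgca
Pcdh8 (chr14:79771342-79771369, minus strand): ccttccagtgATTTGCATatcggcagct
Gadd45a (chr6:67037487-67037514, minus strand): acgtctgctaATTTGCATaacccaatgg

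The same 8 letters stood in genes that moved the other way, and these are shown for contrast: Asb4, Cdx2 and Col3a1, together with Abtb2 and Gadd45g, which are printed by name only.
Asb4 (chr6:5383307-5383334, plus strand): ctgcagcttcATTTGCATgatacactcc
Cdx2 (chr5:147307379-147307406, minus strand): aacttttaaaATGCAAATcgtgtttctg
Col3a1 (chr1:45311380-45311407, plus strand): tgtttctgtcATGCAAATatgtatttaa

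Pim2, a serine/threonine kinase gene with the octamer above, had 6.97, 7.09 and 6.71 at day 5, against 11.51, 11.61 and 11.68 at day 3. It fell by 4.68 ± 0.35 (adjusted p = 7.34e-09), to below its day 0 mean of 7.87. Zfp42 (Rex1), a zinc finger marker of the stem cell state, had 4.96, 5.54 and 4.56 at day 5, against 7.95, 8.33 and 8.28 at day 3. It fell by 3.17 ± 0.30 (adjusted p = 1.86e-07) and had been falling since day 0 (means 11.76 at day 0 and 9.50 at day 2).

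Other fallers of the network had no overlap between the days either. L1td1, an RNA-binding protein gene, fell by 5.44 ± 0.26, and Tdgf1 (Cripto), the Nodal co-receptor, by 5.62 ± 0.25. Dppa5a had 8.80, 9.23 and 8.64 at day 5, against 12.80, 12.76 and 12.99 at day 3. Dppa2 fell by 4.60 ± 0.43, and by 3.98 without day 3 replicate 3, whose 9.92 exceeded the 7.92 and 8.17 of the other day 3 arrays. Sox2, the partner of Pou5f1, had 7.87, 7.96 and 5.99 at day 5, against 10.55, 10.80 and 10.81 at day 3. Day 5 replicate 3 was the low array there, and the fall was 3.45 ± 0.44, or 2.81 without it. Eras, a Ras-family gene of stem cells outside the list, fell by 3.73 ± 0.36.

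Not all of the network was lost. Lin28a, an RNA-binding protein that blocks let-7 maturation, had 10.09, 10.21 and 10.13 at day 5, against 9.93, 9.75 and 9.96 at day 3 (difference 0.26 ± 0.31, adjusted p = 0.671). Sall4, a zinc finger factor, differed by -0.36 ± 0.14 (adjusted p = 0.0761), and Trim71, a ubiquitin ligase of early embryos, by 0.32 ± 0.13 (adjusted p = 0.0927). Esrrb, of the naive state, was already near 6.5 in both groups and differed by -0.02 ± 0.29. Among 17 naive pluripotency genes 4 rose and 3 fell. The risers were Klf4 (1.68 ± 0.31), Tbx3 (2.58 ± 0.46), Stat3 (0.46, not called without day 3 replicate 2 or 3 or day 5 replicate 1 or 2) and Lifr (1.01 ± 0.32), the LIF receptor gene. Klf4 had 7.39, 7.63 and 8.29 at day 5, against 5.90, 6.39 and 5.98 at day 3, with no overlap, and both stayed below its day 0 mean of 10.84. Lifr missed the threshold without any of the 6 arrays, and the riser count was 2 without day 3 replicate 2 or 3 or day 5 replicate 1 or 2.

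Of 17 primed epiblast genes, 11 fell and 2 rose, with a median of -1.31. Fgf5, the marker of the implanted epiblast, had 6.20, 6.08 and 5.57 at day 5, against 10.55, 10.95 and 10.46 at day 3. All day 5 arrays were near its day 0 mean of 6.02, and the fall was 4.70 ± 0.42 (adjusted p = 9.89e-08). Zic5 and Zic2, zinc finger genes of the epiblast and neural plate, fell by 4.05 ± 0.29 and 3.37 ± 0.37. Pou3f1 (Oct6) had 4.92, 4.82 and 5.13 at day 5, against 8.47, 8.85 and 10.39 at day 3, and fell by 4.28 ± 0.71 (adjusted p = 0.000188). Otx2, a head and epiblast homeobox gene, fell by 3.17 ± 0.74, and by 2.37 without day 5 replicate 3. The risers, Sox4 (0.99) and the ephrin receptor gene Epha4 (1.24 ± 0.33), were not called without day 3 replicate 3 or day 5 replicate 2, nor Sox4 without day 5 replicate 1.

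The DNA methylation genes moved unequally: 6 of 15 fell and 2 rose (1 rose at the lowest with an array left out). The de novo methyltransferase genes Dnmt3b, Dnmt3a and their partner Dnmt3l fell by 1.99 ± 0.30, 1.02 ± 0.24 and 2.44 ± 0.42. Dnmt3b had 10.77, 10.92 and 10.99 at day 5, against 12.84, 12.84 and 12.98 at day 3. Dnmt1, which copies methylation at replication, differed by 0.25 ± 0.12 (adjusted p = 0.15). Tet1, which oxidises methylcytosine, fell by 1.16 ± 0.23, while Tet2 (0.85) and Tet3 (0.08) were not called. Of 22 Polycomb and related genes 7 fell and 4 rose, and these counts were 4 and 2 without day 3 replicate 3. Cbx7, the Polycomb reader of stem cells, fell by 1.79 ± 0.20, and Jarid2, a PRC2 partner, by 0.92 ± 0.15, while Ezh2 differed by 0.11. Of 13 chromatin remodelling genes 4 rose and 1 fell. The chromatin protein gene Hmga2 rose by 3.05 ± 0.31, and the BAF complex genes Smarcd3 and Smarca2 by 3.39 ± 0.25 and 1.75 ± 0.18.

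**Figure D2:**
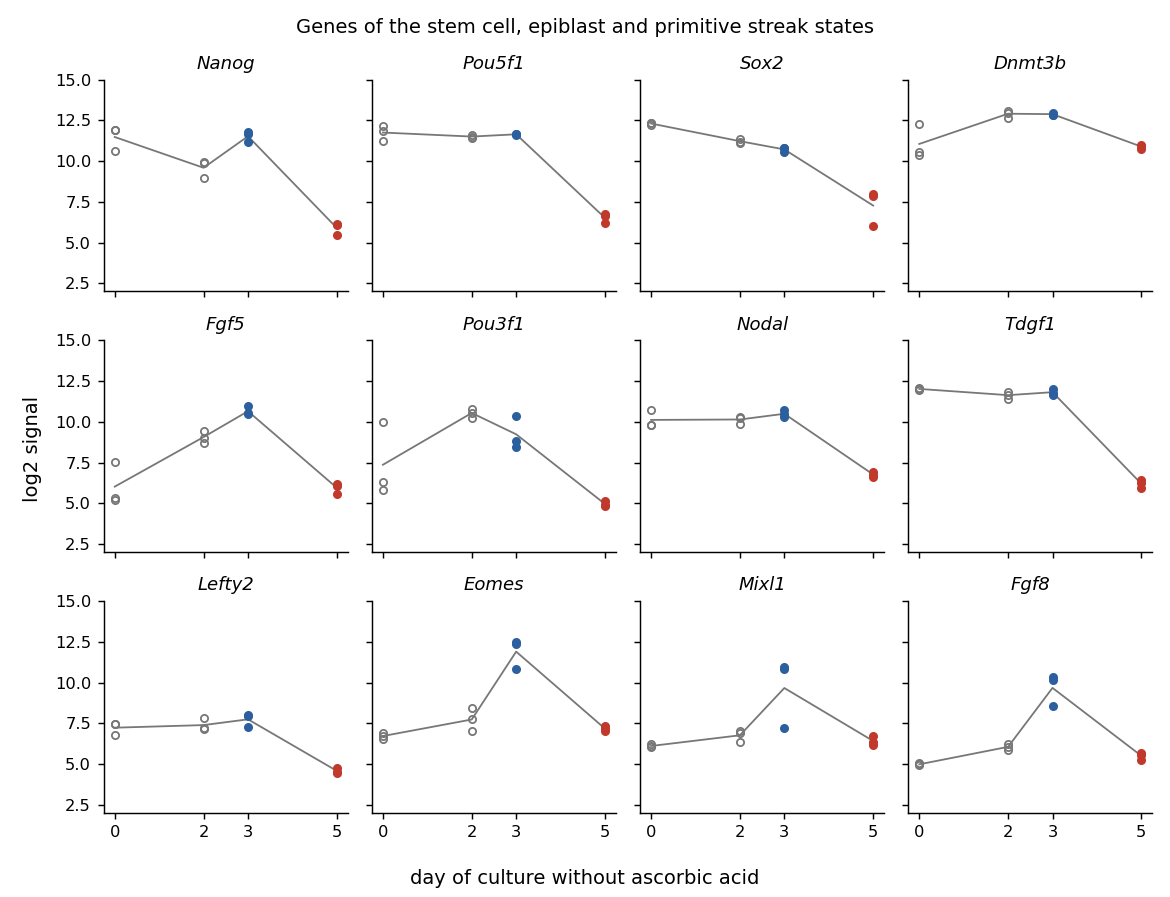
Log2 signal (vertical axis) of 12 genes in every array without ascorbic acid at days 0, 2, 3 and 5 (horizontal axis); red points are day 5, blue points day 3, open points days 2 and 0, and lines join the means. Nanog and Pou5f1 fell after day 3 from a high level, while Eomes, Mixl1 and Fgf8 rose between days 2 and 3 and were low again at day 5, with day 3 replicate 3 as the low point for Mixl1.

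Nodal fell, and 3 BMP ligand genes rose. Of 16 genes of the Nodal pathway 7 fell and 3 rose; Nodal, its co-receptor gene Tdgf1 and the inhibitor genes Lefty1 and Lefty2 were among those that fell. Nodal, the ligand that patterns the streak, had 6.92, 6.75 and 6.63 at day 5, against 10.28, 10.46 and 10.75 at day 3, and fell by 3.73 ± 0.21 (adjusted p = 9.59e-11). Lefty2 and Lefty1, its feedback inhibitors, fell by 3.17 ± 0.26 and 1.69 ± 0.37. Fst, which binds activins and BMPs, had 5.53, 6.03 and 5.75 at day 5, against 11.65, 11.46 and 10.52 at day 3. Its fall of 5.44 ± 0.48 followed a rise of 3.27 between days 2 and 3. The inhibitor gene Cer1 was not called (-0.21). Within the cell the pathway was mixed: Skil, a Smad corepressor, fell by 1.33 ± 0.25, Smad3 rose by 1.10 ± 0.21, and Smad2 (0.38), Smad7 (0.15) and the factor gene Foxh1 (0.37 ± 0.17, adjusted p = 0.155) were not called. The receptor gene Acvr2a rose by 0.71 ± 0.13 and Furin, which cleaves the precursor, by 1.37 ± 0.20.

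BMP and TGF-beta genes moved up. Of 33 measured, 18 rose and 1, Fst, fell, against 9.09% of all genes that rose, with a median of 0.78. Bmp5 had 9.39, 9.71 and 9.47 at day 5, against 4.61, 4.69 and 4.50 at day 3. The day 3 values equal those of day 0 (mean 4.59), and the rise was 4.92 ± 0.14 (adjusted p = 5.04e-15). Bmp2 had 8.88, 9.14 and 8.62 at day 5, against 5.45, 5.62 and 3.94 at day 3, a rise of 3.88 ± 0.38. Bmp4 had 10.06, 10.02 and 10.57 at day 5, against 7.26, 7.14 and 6.91 at day 3, and rose by 3.11 ± 0.55 (adjusted p = 0.000384). Bmp6, Bmp7, and the antagonists Nog, Chrd and Grem1 were not called (0.42, 0.46, 0.06, -0.30 and -0.09).

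Other risers of the list act inside the cell or modulate the ligands. The inhibitory Smad gene Smad6 had 9.69, 9.96 and 10.81 at day 5, against 6.75, 6.82 and 6.27 at day 3, and rose by 3.54 ± 0.32 (adjusted p = 9.6e-08). The homeobox genes Msx2 and Msx1 rose by 3.14 ± 0.33 and 2.56 ± 0.34, and Id2, Id3 and Id1, inhibitors of bHLH factors, by 2.67 ± 0.50, 1.68 ± 0.38 and 1.36 ± 0.23, while Id4 was not called (-0.08). The extracellular and membrane modulators Bambi (2.64 ± 0.17) and Bmper (2.34 ± 0.26) rose as well. Tgfb2, a TGF-beta ligand gene of heart cushions and mesenchyme, had 8.66, 8.94 and 7.89 at day 5, against 4.70, 4.58 and 4.51 at day 3, and rose by 3.90 ± 0.21.

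In the FGF pathway 10 of 27 genes fell and 5 rose. The ligands of epiblast and streak fell: Fgf8 had 5.69, 5.58 and 5.24 at day 5, against 10.13, 10.34 and 8.55 at day 3, and fell by 4.17 ± 0.36 (adjusted p = 6.51e-08). Fgf4, made by stem cells, fell by 2.04 ± 0.49, and by 1.30 without day 3 replicate 3. Genes that FGF-ERK signalling is known to induce fell too: Dusp6, a phosphatase of ERK, by 2.77 ± 0.23, Etv5 by 2.42 ± 0.24, Etv4 by 1.03 ± 0.24 and Spry2 by 0.94 ± 0.21. Some receptors went the other way, with Fgfr3 at 8.97, 9.78 and 9.53 at day 5, against 6.80, 6.77 and 6.84 at day 3. Fgfr3 rose by 2.62 ± 0.23 and Fgfr2 by 2.07 ± 0.25, whereas Fgfr4 was not called (0.07). Fgfr1 rose by 0.81 ± 0.25, a call kept only without day 5 replicate 1 among the arrays left out. A ligand, Fgf3, rose by 1.90 ± 0.32.

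Of 38 Wnt pathway genes 13 rose and 4 fell. Ligands of the streak fell, Wnt8a by 2.91 ± 0.28 and Wnt3 by 1.01 ± 0.31, the second of which missed the threshold without day 3 replicate 1 or 2 or day 5 replicate 1. Ligands of mesoderm rose: Wnt5a had 8.19, 8.34 and 8.05 at day 5, against 5.50, 5.49 and 5.45 at day 3, a rise of 2.71 ± 0.14 (adjusted p = 3.37e-11), and Wnt2 rose by 2.26 ± 0.23. Secreted inhibitors rose too, Dkk1 by 2.12 ± 0.31 and Frzb by 1.81 ± 0.59. The call of Frzb was lost without day 3 replicate 3, at 1.13, or without day 5 replicate 1 or 2. The feedback gene Axin2, a common readout of beta-catenin, averaged 8.67 ± 0.29 at day 5 and 9.13 ± 0.35 at day 3 (SD, n = 3 each), with overlapping arrays, and was not called (-0.46 ± 0.27, adjusted p = 0.282). Sp5, a Wnt target of the streak, had 6.38, 6.33 and 5.97 at day 5, against 10.51, 10.39 and 6.56 at day 3. Its fall of 2.93 ± 0.84 rested on a split day 3 group and was lost without day 3 replicate 1 or 2 or day 5 replicate 3, while without day 3 replicate 3 it was 4.22.

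Of 29 streak and mesendoderm genes 9 fell (6 at the lowest with an array left out), 4 rose and 16 were not called. Eomes, the T-box factor of the streak, had 7.13, 7.04 and 7.34 at day 5, against 12.49, 12.36 and 10.85 at day 3. It fell by 4.73 ± 0.43 (adjusted p = 1.23e-07), after a rise of 4.17 between days 2 and 3. Mixl1, a streak homeobox gene, had 6.18, 6.34 and 6.72 at day 5, against 10.93, 10.86 and 7.21 at day 3. Day 3 replicate 3 stood close to day 5 there, and the fall was 3.25 ± 0.79, but 4.48 with that array left out, 2.62 with day 3 replicate 1 and 2.66 with day 3 replicate 2 left out. Gsc, of the anterior streak, showed the same split, with 5.38, 5.01 and 4.99 at day 5, against 8.59, 8.75 and 5.22 at day 3. Its groups overlapped, and the call (-2.39 ± 0.71, adjusted p = 0.0216) was lost without day 3 replicate 1 or 2 or day 5 replicate 2 or 3, the difference being -1.78 without day 3 replicate 2 and -3.54 without day 3 replicate 3. Mesp1, the factor of the earliest heart precursors, had 7.30, 7.01 and 7.84 at day 5, against 8.05, 8.18 and 6.95 at day 3, and was not called (adjusted p = 0.624). Tbxt (Brachyury) was not analysed here.

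The 4 risers of the streak list belong to later mesoderm. Aplnr, the apelin receptor gene, had 11.01, 11.91 and 12.15 at day 5, against 8.30, 8.71 and 5.13 at day 3. Day 3 replicate 3 was again the array at the day 2 level (5.24), and the rise was 4.31 ± 0.76, or 3.19 with it left out and 4.98 with day 3 replicate 2 left out. Kdr, the VEGF receptor gene of blood and vessel precursors, had 10.49, 10.69 and 10.08 at day 5, against 7.76, 7.59 and 7.72 at day 3, a rise of 2.73 ± 0.21 (adjusted p = 1.32e-08). Cdx2, a caudal homeobox gene of posterior and extraembryonic tissue, rose by 2.70 ± 0.32, and Apela, a ligand of Aplnr, by 1.41 ± 0.28.

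The mesenchyme list held 18 risers of 24 genes and 0 fallers, with a median of 1.83. Its first member, Snai2 (Slug), a zinc finger repressor of E-cadherin, showed the largest rise of all 18194 genes. Snai2 had 10.95, 11.47 and 11.57 at day 5, against 4.73, 4.65 and 4.64 at day 3. The difference was 6.66 ± 0.21 (adjusted p = 1.26e-14), which is 101-fold. Snai1, its relative, had 7.19, 6.94 and 7.46 at day 5, against 6.79, 7.06 and 6.19 at day 3, with overlap and no call (0.52 ± 0.25, adjusted p = 0.186). Zeb1 rose by 2.30 ± 0.32 while the brightest probe set of Zeb2 differed by 0.28 ± 0.14 (adjusted p = 0.194) and 4 dimmer ones rose by 0.65 to 2.32, so its change is uncertain. Further, the bHLH genes Twist1 and Twist2 rose by 2.55 ± 0.26 and 2.01 ± 0.19.

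Structural genes of mesenchyme rose with them. Vim, the mesenchymal intermediate filament, had 12.55, 12.73 and 12.66 at day 5, against 10.04, 10.10 and 9.55 at day 3, and rose by 2.75 ± 0.25. Cdh11 had 10.75, 11.02 and 11.36 at day 5, against 8.86, 8.85 and 5.07 at day 3. It rose by 3.45 ± 0.81, and by 2.19 with the low day 3 replicate 3 left out, or 4.08 with either of the other day 3 arrays left out. Cdh2 (N-cadherin) had 10.80, 10.97 and 10.51 at day 5, against 9.28, 9.60 and 7.25 at day 3. Its rise of 2.05 ± 0.63 (adjusted p = 0.0264) missed the threshold at 1.32 without day 3 replicate 3 and also without day 5 replicate 1 or 2.

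Epithelial genes were not lost as a group: 6 of 32 fell and 5 rose, and 3 fell without day 3 replicate 2 or 3 or without day 5 replicate 3. Cdh1 (E-cadherin) had 11.33, 11.02 and 9.24 at day 5, against 11.52, 11.74 and 11.90 at day 3. Day 5 replicate 3 was the low array, and the fall of 1.19 ± 0.36 (adjusted p = 0.0227) was 0.55, with no call, without it; the call was also lost without day 3 replicate 2 or 3. Epcam, a surface protein of epithelia, showed 10.87, 10.93 and 9.12 at day 5, against 11.35, 11.37 and 11.63 at day 3, a fall of 1.14 ± 0.34 that dropped to 0.55, uncalled, without day 5 replicate 3, and was also uncalled without day 3 replicate 3. The epithelial factor gene Grhl2 fell by 1.08 ± 0.24 and the junction protein gene Marveld3 by 1.75 ± 0.39. Keratins of simple epithelia rose: Krt8 had 13.23, 13.27 and 13.34 at day 5, against 10.12, 10.42 and 9.39 at day 3, a rise of 3.30 ± 0.38 (adjusted p = 3.38e-06). Krt18, its partner, rose by 3.10 ± 0.27, Krt19 by 1.69 ± 0.36 and Dsp, of desmosomes, by 2.35 ± 0.37.

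**Figure D3:**
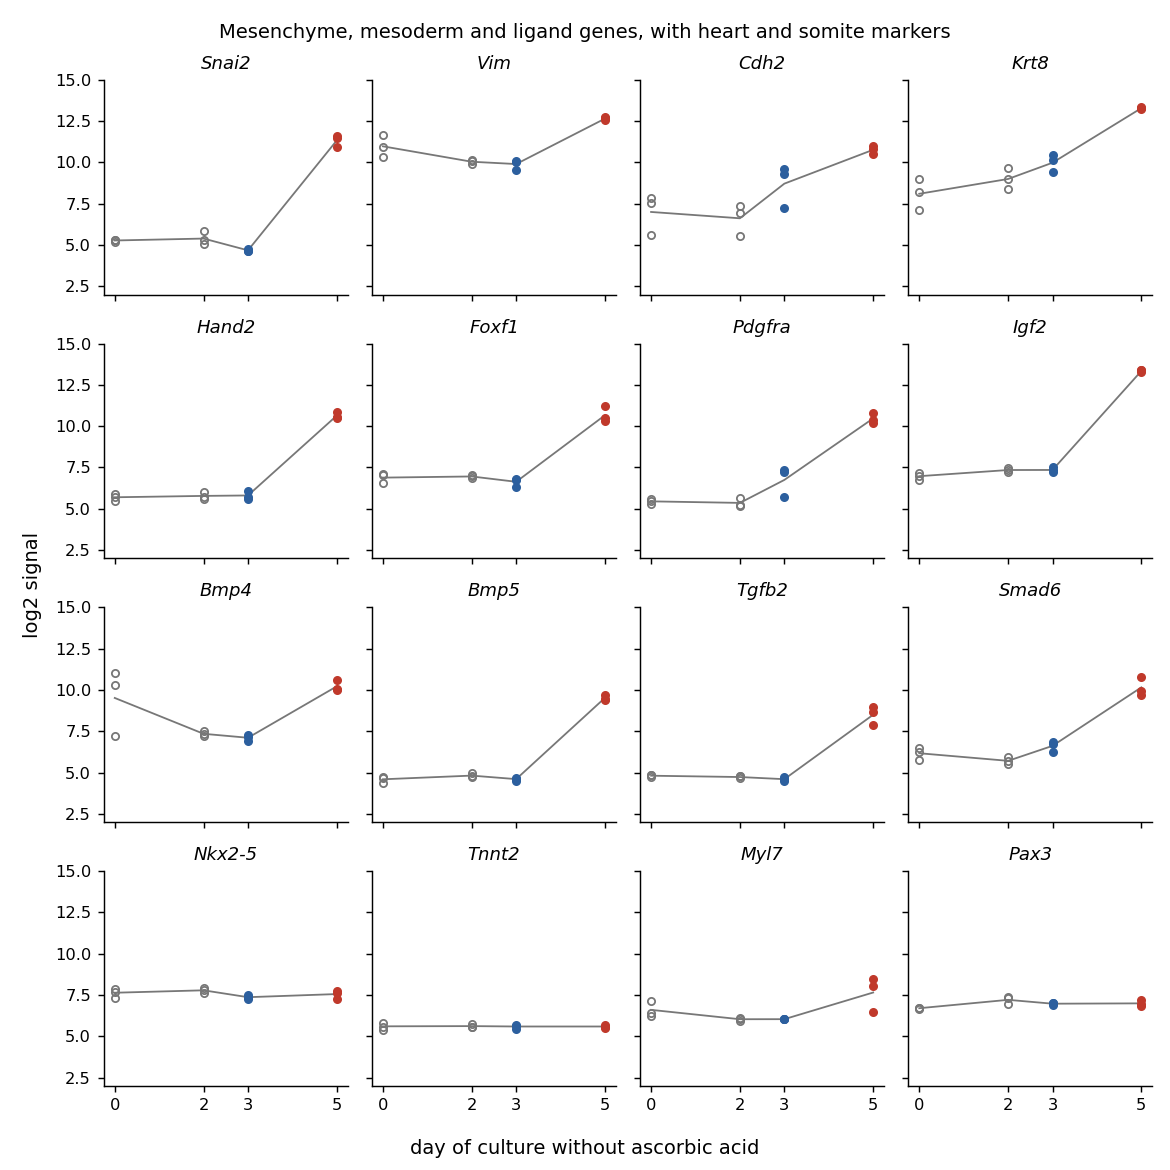
Log2 signal (vertical axis) of 16 genes in every array without ascorbic acid at days 0, 2, 3 and 5 (horizontal axis); red points are day 5, blue points day 3, open points days 2 and 0, and lines join the means. Snai2, Hand2, Igf2 and Bmp5 were flat until day 3 and high in all 3 arrays of day 5, while Nkx2-5, Pax3 and the brightest probe set of Tnnt2 were not called; dimmer probe sets of Tnnt2 rose.

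Of 29 genes of lateral and cardiac mesoderm 22 rose and 0 fell, with a median of 1.58. Hand2, a bHLH factor of the right heart and limb field, had 10.49, 10.86 and 10.57 at day 5, against 6.06, 5.61 and 5.74 at day 3. It rose by 4.84 ± 0.18 (adjusted p = 3.34e-13). Foxf1, the forkhead factor of splanchnic and extraembryonic mesoderm, had 10.28, 10.51 and 11.19 at day 5, against 6.75, 6.81 and 6.33 at day 3, a rise of 4.03 ± 0.33. Pdgfra, a receptor of early mesoderm, had 10.21, 10.82 and 10.37 at day 5, against 7.33, 7.22 and 5.68 at day 3, and rose by 3.72 ± 0.42. Gata6 rose by 2.79 ± 0.24, Tbx20 by 1.40 ± 0.17, Isl1 by 1.39 ± 0.19 and Mef2c by 1.56 ± 0.29, all factors of heart precursors, and Gata4 by 0.75 ± 0.16. The vessel-wall gene Rgs5 rose by 5.47 ± 0.24, and Nrp1, a co-receptor for VEGF and semaphorins, by 5.57 ± 0.22.

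Later heart factors did not move with these. Nkx2-5 had 7.76, 7.65 and 7.26 at day 5, against 7.49, 7.35 and 7.26 at day 3 (0.19 ± 0.18, adjusted p = 0.576). Tbx5 differed by 0.25 ± 0.16 (adjusted p = 0.357) and Myocd by -0.27 ± 0.14 (adjusted p = 0.205). Of 27 sarcomere genes 7 rose and 1 fell. Tnnc1 and Tnni1, troponin genes of early heart and slow muscle, rose by 2.37 ± 0.16 and 2.48 ± 0.28, and Myl4, an atrial light chain gene, by 1.95 ± 0.50. Tnnt2, cardiac troponin T, had 5.71, 5.51 and 5.56 at day 5, against 5.64, 5.68 and 5.46 at day 3, a difference of 0.00 ± 0.11 by its brightest probe set. Other Tnnt2 probe sets rose by 3.17 (adjusted p = 0.0135 in limma over all probe sets with 1 gene symbol) and 2.01 (adjusted p = 0.0417), so its change is uncertain. Myl7, of the atrium, had 8.02, 8.45 and 6.48 at day 5, against 6.03, 6.04 and 6.04 at day 3. All 3 arrays lay above day 3 but unequally, and it was not called (1.61 ± 0.61, adjusted p = 0.074).

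Somite and kidney precursors left no such trace. Of 22 paraxial and intermediate mesoderm genes 2 rose and 1 fell, near the background share, and 0 rose without day 3 replicate 3 or day 5 replicate 1. Pax3 had 7.21, 6.83 and 6.94 at day 5, against 7.01, 6.89 and 7.02 at day 3, and Meox1 differed by 0.04 ± 0.13. The faller was Tcf15, a bHLH factor of somites that stem cells also express, which had 7.81, 7.53 and 7.48 at day 5, against 8.46, 8.68 and 9.10 at day 3 (-1.14 ± 0.22, adjusted p = 0.000765). Of 17 smooth muscle genes 6 rose, among them Csrp1 (2.59 ± 0.25), Cald1 (2.14 ± 0.32) and Acta2 (1.98 ± 0.34); Tagln, of contractile muscle, differed by -0.62 ± 0.41 with overlapping arrays.

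Blood and vessel genes rose in part. Of 21 blood factors 6 rose and 1 fell, of 15 globin and heme genes 2 rose and 1 fell (0 with any array left out), and of 29 endothelial genes 10 rose and 1 fell. Tal1, the bHLH factor of blood and vessel precursors, had 8.26, 8.14 and 7.45 at day 5, against 5.41, 5.49 and 5.66 at day 3, and rose by 2.43 ± 0.15 (adjusted p = 4.67e-10). Hbb-bh1, an embryonic beta-globin, had 10.02, 11.16 and 7.81 at day 5, against 5.96, 5.76 and 5.15 at day 3. The day 5 arrays spread widely with replicate 3 lowest, and the rise was 4.04 ± 0.59, or 4.97 without replicate 3 and 3.29 without replicate 2. Hba-x, embryonic alpha-globin, had 7.54, 8.81 and 6.93 at day 5, against 6.46, 6.61 and 6.65 at day 3, and was not called (1.19 ± 0.62, adjusted p = 0.218). Gata1 and Klf1, of red cells, were not called (0.20 ± 0.14 and 0.34 ± 0.24). Myb, needed by definitive blood and present in stem cells, fell by 2.47 ± 0.37.

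Among vessel genes Sox7 rose by 2.21 ± 0.22. Cdh5 (VE-cadherin) had 6.67, 6.71 and 4.76 at day 5, against 4.38, 4.35 and 4.41 at day 3, and Tek, the angiopoietin receptor, 7.79, 8.47 and 5.82, against 5.69, 5.60 and 5.84. Day 5 replicate 3 was near the day 3 level in both cases. Cdh5 was called (1.67 ± 0.46, adjusted p = 0.0132; 2.31 without replicate 3, no call without day 5 replicate 1 or 2) and Tek was not (1.65 ± 0.65, adjusted p = 0.0864). Lmo2 rose by 0.84 ± 0.24 with overlapping arrays, a call lost without day 3 replicate 2 or 3 or day 5 replicate 1 or 2.

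Hox genes, which set position along the body axis, rose in 3 of their 4 clusters: 11 of 33 measured genes rose and 0 fell. In the Hoxb cluster (chromosome 11) 5 of 9 rose, in Hoxc (chromosome 15) 2 of 7 and in Hoxd (chromosome 2) 4 of 8. In Hoxa (chromosome 6) 0 of 9 were called, and their differences ran from -0.23 to 0.34. Hoxd1 had 8.20, 8.49 and 8.65 at day 5, against 4.57, 5.08 and 4.86 at day 3, and rose by 3.61 ± 0.18 (adjusted p = 1.23e-11). Hoxb1, an early gene of posterior mesoderm and hindbrain, had 8.51, 8.51 and 8.76 at day 5, against 6.09, 6.14 and 5.81 at day 3, a rise of 2.58 ± 0.18.

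The size of the rises varied along the clusters. Hoxb2, Hoxb5 and Hoxb6 rose by 2.18 ± 0.18, 2.05 ± 0.25 and 2.36 ± 0.30, and Hoxb3, which lies among them, had a brightest probe set that was not called (0.34) and a dimmer one that rose by 2.61 (adjusted p = 8.8e-10 in limma over all probe sets with 1 gene symbol). Hoxd8 and Hoxd9 rose by 2.40 ± 0.16 and 2.34 ± 0.21, and Hoxd10 by 0.84 ± 0.15, while Hoxd11, Hoxd12 and Hoxd13 stayed within 0.18 of day 3. Hoxc8 had 5.55, 8.16 and 5.14 at day 5, against 3.70, 3.44 and 3.62 at day 3, a rise of 2.70 ± 0.45 that was 1.76 without the high day 5 replicate 2. Of 10 genes for Hox partners and caudal factors 4 rose, Meis2 by 1.77 ± 0.40, Pknox2 by 1.58 ± 0.20, Pbx2 by 0.78 (not called without day 3 replicate 3) and Cdx2 as above. With ascorbic acid 12 Hox genes rose, 0 of them in Hoxa.

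**Figure D4:**
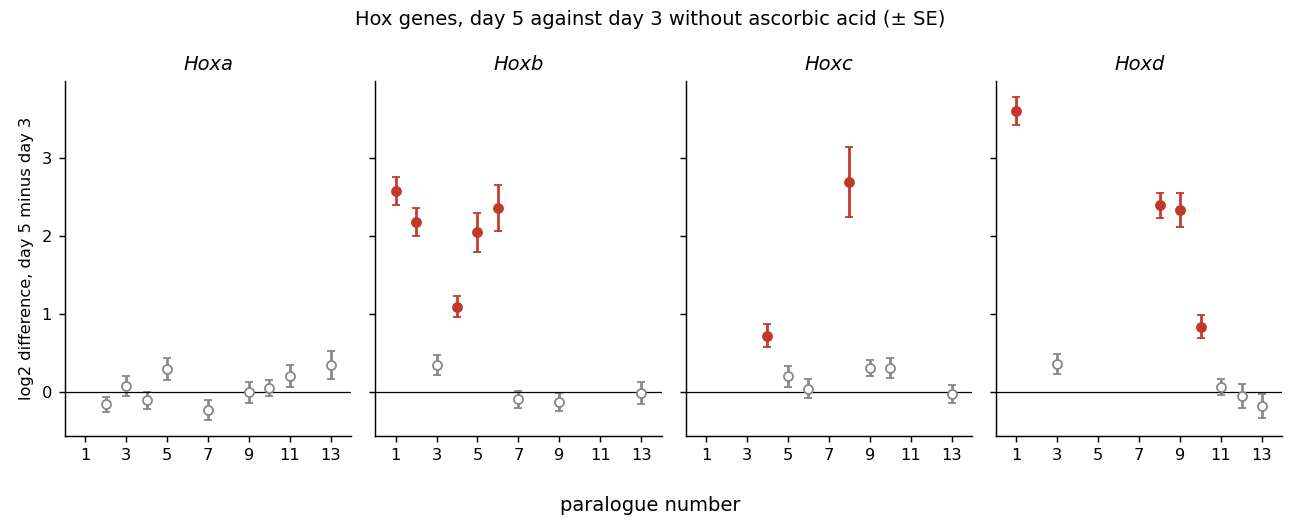
Log2 difference, day 5 minus day 3 without ascorbic acid (vertical axis, ± SE), of 33 Hox genes by paralogue number (horizontal axis) in each cluster; red filled points rose and open grey points were not called. Rises stand in Hoxb, Hoxc and Hoxd, while all 9 Hoxa points lie between -0.23 and 0.34.

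Of 35 imprinted genes, which are expressed from the copy of a single parent, 17 rose and 2 fell, with 14 of the rises 2-fold or more. Igf2, the fetal growth factor, had 13.26, 13.38 and 13.37 at day 5, against 7.33, 7.50 and 7.21 at day 3. The rise of 5.99 ± 0.14 (adjusted p = 1.34e-16) followed no such change between days 2 and 3, where it differed by 0.00. Igf2r, which removes Igf2, rose by 2.46 ± 0.24 and its antisense neighbour Airn by 1.63 ± 0.16. Cdkn1c, a cell cycle inhibitor, rose by 2.85 ± 0.29, Mest by 2.80 ± 0.17, Phlda2 by 2.53 ± 0.34 and Peg3 by 2.16 ± 0.41. Dlk1, the paternally expressed gene of its domain, had 9.31, 10.22 and 9.31 at day 5, against 6.77, 6.54 and 6.60 at day 3, a rise of 2.98 ± 0.22. Meg3, expressed from the maternal copy of the same domain, had 8.13, 7.56 and 7.70 at day 5, against 7.85, 7.47 and 7.55 at day 3, and differed by 0.17 ± 0.17 (adjusted p = 0.583). The fallers were Snrpn (0.77 ± 0.12 lower) and Magel2 (0.91 ± 0.23 lower).

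Of the 16 genes of the IGF axis 7 rose and 3 fell. The receptor genes Igf1r and Insr rose by 0.88 ± 0.19 and 0.93, the second not called without day 3 replicate 3 or day 5 replicate 2 or 3. Binding proteins moved in opposite directions: Igfbp4 had 11.39, 11.81 and 11.61 at day 5, against 8.46, 8.58 and 8.30 at day 3, and rose by 3.16 ± 0.21. Igfbp3 had 6.48, 6.57 and 5.24 at day 5, against 9.46, 9.47 and 8.84 at day 3, and fell by 3.16 ± 0.60. Igfbp2 fell by 1.62 ± 0.19.

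Extracellular matrix genes rose broadly. Of 25 collagens 11 rose and 0 fell, and of 21 genes that modify or fold collagen 12 rose and 0 fell (7 without day 5 replicate 2). Col4a1 and Col4a2, of basement membranes, rose by 2.49 ± 0.33 and 2.18 ± 0.25, and Serpinh1, the collagen chaperone, by 2.15 ± 0.27. P4ha1, a prolyl hydroxylase that uses ascorbate, had 8.54, 9.05 and 9.09 at day 5 without added ascorbic acid, against 7.07, 7.11 and 6.96 at day 3, a rise of 1.85 ± 0.29 (adjusted p = 9.04e-05). Col3a1, a fibrillar collagen with the octamer above, had 7.37, 9.18 and 5.34 at day 5, against 4.96, 5.15 and 4.97 at day 3. It was uneven within day 5, and its rise of 2.27 ± 0.53 was 1.33 without replicate 2 and 3.25 without replicate 3. Of 16 fibroblast markers 9 rose, but Thy1, Fap and Dcn did not (-0.62, -0.09 and 0.16, not called).

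Of 21 laminin and basement membrane genes 10 rose, with Lama4 at 2.95 ± 0.21 and Nid1 at 2.61 ± 0.44, and 1 fell, Lama5 by 0.72 ± 0.16. In the hyaluronan and proteoglycan list 8 of 25 rose. Hapln1, which links hyaluronan to versican, had 8.01, 8.20 and 7.20 at day 5, against 3.64, 3.57 and 3.40 at day 3, and rose by 4.27 ± 0.21 (adjusted p = 1.56e-11). Vcan (2.75 ± 0.27), the hyaluronan receptor Cd44 (2.65 ± 0.20) and the synthase Has2 (2.06 ± 0.38) rose with it. Of 16 integrins 4 rose, Itga4 by 1.21 ± 0.22, and Itga6, a laminin receptor of epithelia and stem cells, fell by 1.21 ± 0.37, a call lost without day 3 replicate 2 or 3 or day 5 replicate 3.

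Of 43 guidance genes 18 rose and 4 fell. Slit2 and its receptor Robo1 rose by 2.08 ± 0.30 and 1.67 ± 0.20, Unc5c, a netrin receptor, by 2.25 ± 0.23 and Sema5a by 2.25 ± 0.25. Sema3e fell by 2.21 ± 0.39. Ephrin receptors of the early epithelium fell, Epha1 by 2.02 ± 0.29 and Epha2 by 1.55 ± 0.26, while the ligand Efna1 rose by 2.17 ± 0.29. In the Notch pathway 5 of 21 rose and 3 fell (1 without day 3 replicate 3). Hey2, a Notch-responsive repressor of heart and vessels, had 7.34, 7.95 and 7.83 at day 5, against 3.81, 3.96 and 3.67 at day 3, and rose by 3.89 ± 0.16. The ligand Jag1 and the target Hes1 were not called (-0.60 and -0.32). In the retinoic acid pathway 3 of 17 rose and 2 fell, with Crabp1, a binding protein, at 2.26 ± 0.34 and the synthesis gene Aldh1a2 at 1.03 ± 0.21.

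Of 39 cell cycle genes 4 rose (10.3%) and 6 fell (15.4%), against 9.09% and 9.25% of all genes. Only 3 fell without day 3 replicate 2 or day 5 replicate 1, so the list as a whole stayed near the background share. Among the G1 cyclins Ccnd2 rose by 1.95 ± 0.26, Ccnd3 rose by 1.32 ± 0.27 and Ccne1 fell by 1.31 ± 0.13. Ccne1 had 8.56, 8.85 and 8.68 at day 5, against 9.93, 9.89 and 10.19 at day 3. Mcm5, a replication helicase subunit, fell by 0.49 ± 0.10, and Cdk1 and Top2a were not called (-0.13 and -0.16).

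Of 26 glycolysis and hypoxia genes 5 rose and 4 fell. Epas1 (HIF-2 alpha) had 10.01, 10.36 and 10.44 at day 5, against 6.03, 6.65 and 7.23 at day 3, and rose by 3.63 ± 0.52. A dimmer Epas1 probe set differed by 0.40 (adjusted p = 0.196 in limma over all probe sets with 1 gene symbol). By its brightest probe set Epas1 had dropped by 2.13 between days 2 and 3. Its target Vegfa, the ligand of Kdr, rose by 2.22 ± 0.47 and the glucose transporter gene Slc2a3 by 1.53 ± 0.23. Pdk1, which keeps pyruvate out of mitochondria, fell by 1.37 ± 0.19, and Hif1a differed by 0.09. Of 17 mitochondrial and one-carbon metabolism genes 2 rose and 5 fell (3 at the lowest with an array left out). Of 18 lipid genes 1 rose (5.56%) and 2 fell (11.1%), near the 9.09% and 9.25% of all genes. Fabp7, a fatty acid binding protein, fell by 1.89 ± 0.20.

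Of 12 interferon and antigen presentation genes 6 fell and 1 rose. Bst2 (tetherin) had 6.72, 6.86 and 6.77 at day 5, against 8.92, 8.84 and 8.65 at day 3, and fell by 2.02 ± 0.21 (adjusted p = 6.86e-07). Irf1 fell by 1.41 ± 0.21, the immunoproteasome gene Psmb8 by 1.24 ± 0.22 and H2-D1, of MHC class I, by 1.01 ± 0.18, while B2m was not called (0.52). Of 19 early stress genes 0 rose and 2 fell (10.5%), near the 9.25% of all genes that fell. Both fell 2-fold or more, Gadd45a by 2.16 and Dusp1 by 1.26. Of 15 p53 and apoptosis genes 1 rose and 3 fell, Pmaip1 (Noxa) by 1.83 ± 0.25.

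Markers of other tissues of the embryo moved unevenly. In the germline list 6 of 30 fell and 1 rose. Ddx4 (Vasa), an RNA helicase of germ cells, had 3.46, 3.28 and 3.60 at day 5, against 7.20, 7.76 and 8.54 at day 3, and fell by 4.39 ± 0.27 (adjusted p = 5.45e-10). Sycp3, of meiotic chromosomes, had 6.10, 7.19 and 7.54 at day 5, against 9.91, 10.09 and 10.58 at day 3, and fell by 3.25 ± 0.33. Mael, of the piRNA pathway, fell by 2.45 ± 0.49, or by 1.67 without day 3 replicate 3. Meioc and Ccnb1ip1, known from meiosis, fell by 3.50 ± 0.48 (2.88 without day 3 replicate 3) and 3.67 ± 0.24.

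Of 15 definitive endoderm markers 7 rose (46.7%) and 3 fell (20%), against 9.09% and 9.25% of all genes. All 3 fallers fell 2-fold or more, the largest fall being 3.17, and 2 fell at the lowest with an array left out. Cxcr4, which mesoderm also expresses, rose by 3.42 ± 0.37, Sox17 by 1.74 ± 0.17 and Foxa1 by 1.82 ± 0.30. Foxa2, of endoderm and node, had 9.20, 9.21 and 7.80 at day 5, against 10.34, 10.61 and 6.90 at day 3, with overlap and no call. Spink1, a trypsin inhibitor of gut, had 11.39, 11.87 and 9.41 at day 5, against 5.19, 5.73 and 5.89 at day 3, a rise of 5.29 ± 0.48, or 6.03 without day 5 replicate 3. Of 24 extraembryonic endoderm markers 10 rose and 0 fell, and several of the risers, such as Gata6, Sox7 and Col4a1, are also in the mesoderm, vessel or matrix lists. Of the secreted proteins that define visceral endoderm, Afp differed by 0.20 ± 0.25 and Apoa1 by -0.13 ± 0.20. Ttr had 9.58, 10.72 and 8.11 at day 5, against 7.93, 7.91 and 8.07 at day 3; its call (1.50 ± 0.46, adjusted p = 0.0246) was lost without any array but day 5 replicate 3, and the difference was 0.88 without day 5 replicate 2 and 2.18 without day 5 replicate 3.

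Of 20 trophoblast markers 8 rose and 1, Eomes, fell; Cdx2, Krt8, Krt18 and Bmp4 among the risers are described above for other tissues. The part of such cells in the results was not tested. Plac1, a placental gene, had 9.89, 10.19 and 11.05 at day 5, against 6.44, 6.40 and 6.18 at day 3, and rose by 4.04 ± 0.28, and Gata3 rose by 2.38 ± 0.14. Elf5, Ascl2 and Tpbpa, which mark trophoblast more narrowly, were not called (0.33, -0.25 and -0.20). Of 24 neuroectoderm genes 3 rose and 6 fell (5 rose without day 5 replicate 3), and the neural factor genes Pax6 and Sox1 differed by -0.12 ± 0.12 and -0.04 ± 0.12. Of 11 neural crest genes 4 rose, among them Snai2 and Msx1, which mesoderm shares; Sox10 (0.01) was not called.

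Other genes among the 20 largest rises were Pmp22 (5.17 ± 0.26), a membrane protein of myelin and mesenchyme, the X-linked zinc finger gene Zfp711 (5.15 ± 0.31), Asb4 (4.89 ± 0.33), an ankyrin and SOCS box gene of vessel precursors, and Ahnak (4.73 ± 0.24). Ackr3, a scavenger receptor of Cxcl12, rose by 4.54 ± 0.56, Phlda1 by 4.29 ± 0.18, Stard8 by 4.22 ± 0.25, Fbn2, a fibrillin, by 4.13 ± 0.16 and Capn6 by 4.09 ± 0.23. Among the 20 largest falls, Nefl, a neurofilament gene, had 6.65, 6.12 and 5.37 at day 5, against 10.61, 10.36 and 10.38 at day 3, and fell by 4.40 ± 0.32 after a rise of 2.69 between days 2 and 3. Cbr3, a carbonyl reductase, fell by 3.65 ± 0.36. These 40 genes were picked for size and for no overlap among the same 6 arrays. That none of them lost its call when any 1 array was left out was therefore all but set by the choice.

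The same step in the 6 arrays with ascorbic acid shares no array with the untreated step, but the arms are not independent. Treated and untreated arrays of the same day and number deviated together (r 0.21 to 0.68). Both steps also take their spread from the same fit of all 21 arrays. How much this adds to the overlap below was not tested. There, 1675 genes rose (9.21%) and 1623 fell (8.92%). Of the genes that rose, 1317 were called in both arms, which is 78.6% of the treated and 79.7% of the untreated list. Of those that fell, 1284 were, which is 79.1% of the treated and 76.3% of the untreated list. No gene was called in opposite directions. Snai2 rose by 6.15 ± 0.21 with ascorbic acid and 6.66 ± 0.21 without, Igf2 by 5.99 in both arms, and Nanog fell by 5.58 ± 0.35 with and 5.63 ± 0.35 without.

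**Figure D5:**
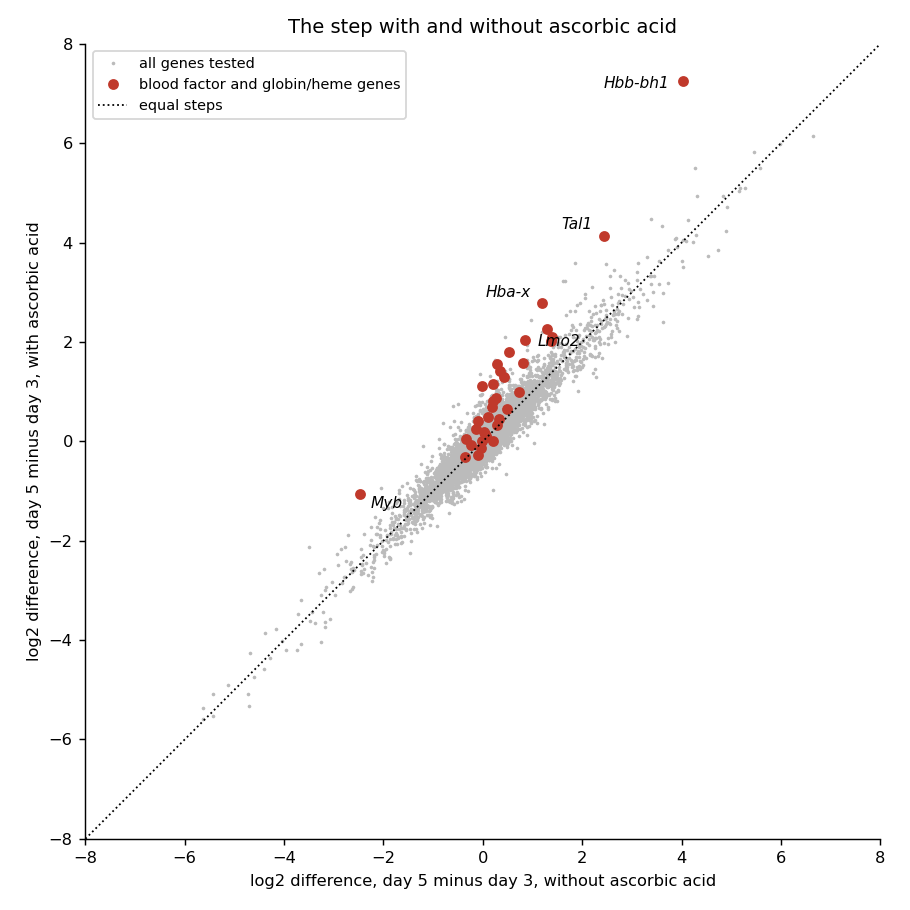
Log2 difference of day 5 minus day 3 with ascorbic acid (vertical axis) against that without it (horizontal axis) for 18194 genes; red points are the 36 blood factor and globin or heme genes, and the dotted line marks equal steps. Most genes lie along the line, while 33 of the 36 blood genes lie above it, Hbb-bh1 the farthest.

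The difference between the 2 steps was called for 1 gene of 18194 (0.0055%), with 326 genes (1.79%) at an unadjusted p under 0.05. That gene was Tal1, which had 9.67, 9.54 and 9.54 at day 5 with ascorbic acid, against 5.51, 5.50 and 5.32 at day 3. Its step with ascorbic acid exceeded the untreated step by 1.71 ± 0.21 (adjusted p = 0.0021). Treated and untreated arrays of the same day and number deviated together, and with them as pairs 26 genes (0.143%) were called, 25 with the larger value in the treated step. These included Tal1, Hbb-bh1 (3.22 ± 0.31, adjusted p = 0.00111), Lmo2, Nfe2, Myb and Tek of blood and vessels, Rspo3 (1.74 ± 0.18), a Wnt agonist, and 4 glycolytic genes, Pgk1, Aldoa, Ldha and Tpi1, at 0.56 to 0.68. Krt18 was the gene with the smaller value in the treated step (-0.63 ± 0.11).

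Hbb-bh1 had 13.30, 12.99 and 10.97 at day 5 with ascorbic acid, against 5.03, 5.31 and 5.15 at day 3, where the untreated day 5 had 10.02, 11.16 and 7.81. Replicate 3 was the low day 5 array in both arms. Of the 36 blood factor and globin or heme genes, 33 had a positive difference, treated minus untreated step. Their median difference was 0.51, against 0.01 for all genes. A positive difference need not be a larger rise: Myb fell by 2.47 without ascorbic acid, and its difference of steps was 1.41. Of 21 blood factors 13 rose with ascorbic acid and 6 without, of 15 globin and heme genes 7 and 2, of 29 endothelial genes 17 and 10, and of 26 glycolysis and hypoxia genes 11 and 5. Of the 36 blood genes, 1 passed the test of the difference itself without pairs and 5 with pairs.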

How the data were processed

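The deposited log2 signals were made by the authors with RMA (background correction, quantile normalisation and a single value per probe set), per the submitters' processing notes, which name no version. Per the labels' protocols, biotinylated cRNA was made from 100 ng of total RNA.

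Of 45101 probe sets, 34958 carried 1 gene symbol, 932 several and 9211 none; the brightest probe set by mean over all arrays stood for each of 18194 genes. All 21 arrays were fitted as 7 group means in limma 3.58.1 (R 4.3.3, lmFit and eBayes with an intensity trend). Arrays give no read depth, and their number limits the precision. Named genes are the 20 largest rises and 20 largest falls among called genes whose arrays do not overlap (clone names left out), list members, and the 10 smallest p values for the difference between steps. The members and the 46 lists were chosen with earlier results of these data known, so list counts are descriptions. Dimmer probe sets rose for Zeb2, Tnnt2 and Hoxb3, which are not called here. The same held for other uncalled list members, such as Efnb1 (2.92), Gata5 (1.12), Erg (1.26), Eya1 (1.01) and Col11a1 (1.30). For Elovl6, also not called, a dimmer probe set fell (-0.87). For some called genes dimmer probe sets changed far less than the brightest. Examples are Ahnak (0.10, 0.69 and 0.93), Capn6 (0.79), Foxf1 (0.92) and Epas1 (0.40). All list counts rest on the brightest probe set alone. Promoters are from RefSeq (GRCm38.p6), 300 bases a start, for 27025 genes.

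Arrays of the same number were checked for shared deviations: r was 0.24, 0.26 and 0.03 between the untreated days, so these were not paired. It was 0.14 to 0.20 between the treated days, which pairs them, but the treated step is given without the block, which moved its count by less than 1.5 times. It was 0.21 to 0.68 between arms on a day, so the difference of steps is given with and without pairs. Simulated data for this step over 18194 genes had 50 genes changed at each of several sizes and independent noise. The fit found 48% of the 1.5-fold changes and 82% of those of 2-fold. At 3-fold it found 98% and at 5-fold 100%, with 5 false calls among 169. Far more genes were called in the real step, and arrays can deviate as a whole, so these rates may not carry over to it. Alternatives were other normalization, filters, sample sets, blocks, probe set rules and leaving out each array.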

Additional observations from a re-analysis of the deposited data

Results flagged for a closer look

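Tal1 stood out because its step from day 3 to day 5 was larger with ascorbic acid than without by 1.71 on the log2 scale in limma, the only difference of steps that passed the test without pairs. With treated and untreated arrays of the same day and number as pairs, 26 genes passed. Higd1a, a mitochondrial protein gene induced by low oxygen, moved one way in every array of one arm and the other way in the other, by values of its brightest probe set. With ascorbic acid it had 11.35, 11.24 and 11.39 at day 5 and 10.94, 11.18 and 10.98 at day 3. Without it, Higd1a had 10.64, 10.81 and 10.86 at day 5 and 11.06, 11.25 and 11.48 at day 3. The difference of its steps was 0.79 (adjusted p = 1 unpaired and 0.0174 with pairs). The fall without ascorbic acid (0.49 ± 0.14, adjusted p = 0.0143) missed the threshold without day 3 replicate 3 or day 5 replicate 1. Groups of 3 arrays were too small for a search for outlying arrays.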

How the results depend on the processing

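The 3336 genes called without ascorbic acid (1653 rose, 1683 fell) and the 1044 changed 2-fold or more stayed within 1.5 times under renewed quantile normalization, the upper 60% of genes by mean, the 6 arrays alone, the replicate block (4351 genes), no intensity trend, the mean of probe sets and median centring. Median centring and the block over pairs of a day were chosen after seeing the data. Leaving out each array gave 2224 to 2964 genes, 1144 to 1517 rises and 1080 to 1523 falls, the lowest without day 3 replicate 3. With ascorbic acid the count was 2183 to 2930 over arrays left out, with 1040 to 1519 falls, the lowest without day 3 replicate 3 of that arm, and 4644 with the replicate number as a block. Genes whose steps differ numbered 1, but 0 with the compared arrays alone, 0 with the replicate block by number, 26 with pairs of a day as blocks, and 1 to 13 with an array left out, the most without treated day 5 replicate 3. Of 399 named genes that were called, 306 kept the call with each array left out. The mean of probe sets reversed 1 call, Higd1a, at 0.094, as its dimmer probe sets had the opposite sign. Signal over background limits folds of genes that were silent at either day.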
